A study of Mus musculus with 9 samples.

Results

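The genes described here are the transcription regulators YAP and TAZ, their DNA-binding partners of the TEAD family and genes that this complex is known to drive, followed in adult neural stem cells (NSCs) through the first hours of differentiation. The 10 members were set by name (Yap1, Wwtr1, Tead1, Tead2, Lats2, Amotl2, Cyr61, Ctgf, Ankrd1 and Axl) and were found by their Ensembl identifiers among the 48526 genes of the count table, where Cyr61 and Ctgf carry their present names Ccn1 and Ccn2. Of these 10, 9 passed the expression filter, and the remaining member, Ankrd1, was almost silent.

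In the Hippo pathway, MST kinases activate LATS kinases, which phosphorylate YAP (gene Yap1) and TAZ (gene Wwtr1) and keep them in the cytoplasm. When the kinases are inactive, for example when cells spread on a stiff or adhesive surface, YAP and TAZ enter the nucleus and bind TEAD proteins on target genes. Some of those targets, Lats2 and Amotl2 among them, restrain YAP and TAZ in turn, and Cyr61 and Ctgf are widely used as readouts of the complex.

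The NSCs came from the subependymal zone (SEZ) of adult C57BL/6 mice and were expanded in culture with EGF and FGF. Differentiation was induced by culture without EGF on an adhesive substrate, and RNA was taken before induction (0 h) and after 1 h and 6 h, with 3 replicates at each of the 3 time points and 9 libraries in all. For cells fixed at early times, the methods describe seeding in medium with both growth factors ahead of the induction. Whether this holds for the cells that were sequenced, and how those of 0 h were plated, is not given in the sources used here, so the loss of EGF, the contact with the substrate and the handling of the cells cannot be told apart. Nothing states that replicates were separate cultures or animals, and the p-values measure the spread between these libraries. In bulk RNA, fewer cells that express a gene and less RNA per cell cannot be told apart. Total counts per library were between 65871454 and 105592597, and the members that were tested had between 242 and 24776 counts in a library. All 8 NSC markers checked passed the filter, with a summed level between 7520 and 10150 CPM (scaled counts, defined in the next paragraph), Nes and Sox2 included. The endothelial, fibroblast and microglial lists each summed to under 5 CPM in every library, since their highest sums were 4.28, 1.75 and 0.274 CPM. Mural markers summed to between 1.01 and 4.10 CPM at 0 h and between 1.24 and 7.29 CPM at 6 h, and ependymal markers to between 47.3 and 88.5 CPM at 0 h and between 38.5 and 60.1 CPM at 6 h. Nearly all of the ependymal sum was Foxj1, with 85.8, 44.5 and 53.7 CPM at 0 h. The remaining ependymal markers Ccdc153, Rarres2 and Tmem212 reached at most 1.55, 1.85 and 0.027 CPM in any library. The part of these cells in the results was not tested. The library of replicate 3 at 1 h stood apart, since its change from 0 h followed transcript length across genes (Spearman rho −0.297, against −0.0873 and −0.0319 in replicates 1 and 2). Its part in the results was not tested beyond the values without it or with that trend removed.

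Levels are CPM, read counts divided by the library size in units of 1e6 reads, scaled by TMM, a method that corrects for differences in RNA composition. Changes are log2 fold changes with their standard error (SE) from edgeR's quasi-likelihood test fitted on time point alone, and a gene was called when its p, adjusted over all 18858 genes tested, was under 0.05. Libraries of different time points that carry the same replicate number departed from their time-point means in similar ways. For this reason, a second fit that takes the number as a block is given wherever it changed a call, and is named the blocked fit. The fit with time point only ignores this pairing, so a missing call in it does not show that a gene was unchanged. The common biological coefficient of variation (spread between libraries beyond counting noise) was 0.277 in that fit and 0.0627 in the blocked fit. The 3 comparisons share libraries and are not independent of each other.

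**Figure D1:**
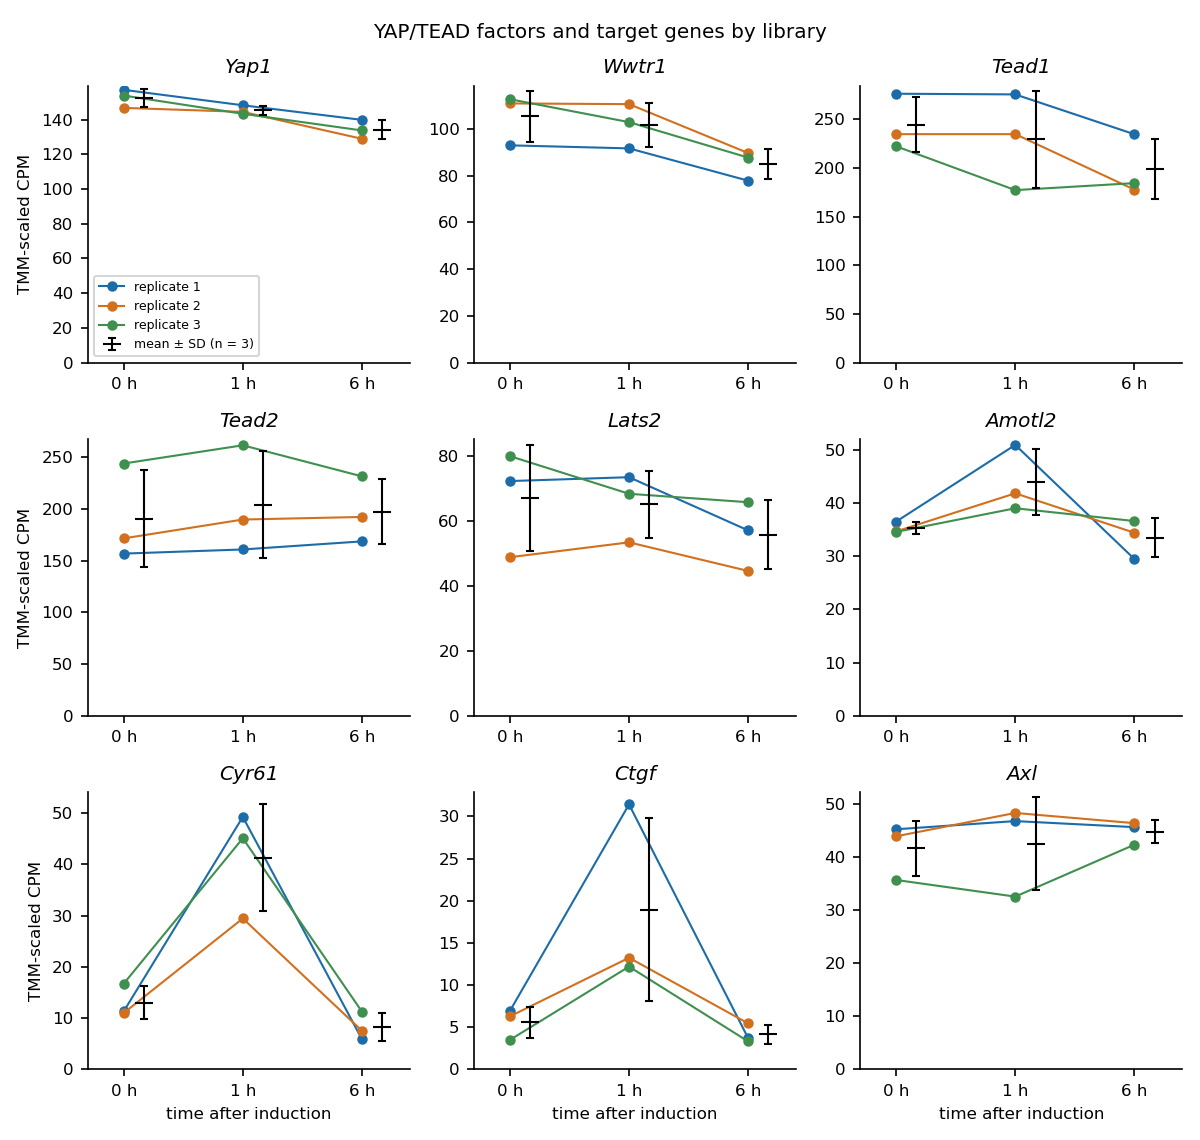
TMM-scaled CPM (y axis, from 0) of the 9 tested members by time after induction (x axis). Coloured lines join libraries with the same replicate number, and black marks give the mean ± SD of 3 libraries. Cyr61 and Ctgf stand highest at 1 h in every replicate, whereas Yap1 and Wwtr1 are lowest at 6 h in every replicate.

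RNA of the 4 factors was present before induction, and these genes stood above the other members per length of transcript at 0 h. Tead2 had the highest level, 39.8 ± 9.72 CPM per kb of exon (SD, n = 3), followed by Wwtr1 at 22.1 ± 2.29, Tead1 at 18.0 ± 2.09 and Yap1 at 16.5 ± 0.577 CPM per kb. The libraries of Wwtr1 and Tead1 overlapped in this order, as did those of Tead1 and Yap1, whereas Tead2 lay above Wwtr1 in every library. Lats2 (9.60 ± 2.32 CPM per kb), Axl (8.25 ± 1.03), Cyr61 (6.43 ± 1.60) and Amotl2 (5.60 ± 0.174) came next, each overlapping its neighbour. Ctgf had 1.94 ± 0.640 CPM per kb, below Amotl2 in every library. At 1 h Cyr61 had moved up to the third place, with 20.5 ± 5.18 CPM per kb, and its libraries then overlapped with those of Wwtr1 and Tead1. At 6 h it was in the eighth place, with 4.06 ± 1.37 CPM per kb, overlapping with Amotl2.

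At 1 h after induction the targets Cyr61 and Ctgf had the largest changes among the members, and the factors changed little. In the fit with time point only, 0 of the 10 members were called, where 0.0424% of all tested genes were called higher and 0.0% lower. At an unadjusted p under 0.05 there were 3 members, all higher (Cyr61, Ctgf and Amotl2). Of all 18858 tested genes, 276 were higher and 459 lower at that p. DESeq2 called 2 of these members, Cyr61 and Ctgf, where it called 55 of all genes higher and 44 lower. The blocked fit called 2 members higher, Cyr61 and Ctgf, and 0 lower, where 1.36% of all tested genes were called higher and 2.14% lower.

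Cyr61 (Ccn1, ENSMUSG00000028195; chr3:145646976-145649981, minus strand, GRCm38) encodes a secreted matricellular protein that binds integrins and is an immediate-early gene. Its level was 11.3, 11.0 and 16.7 CPM in replicates 1 to 3 at 0 h, and 49.3, 29.5 and 45.1 CPM at 1 h. At 6 h it was 5.85, 7.49 and 11.2 CPM. The 1 h libraries lay above all others, and in each replicate the 6 h library lay below the 0 h library, although these groups overlapped. The level at 1 h was 4.37, 2.69 and 2.70 times that at 0 h in replicates 1, 2 and 3. The log2 fold change was 1.67 ± 0.295 (SE) with an edgeR adjusted p of 0.256, and in the blocked fit 1.68 ± 0.155 with an edgeR adjusted p of 4.90e-05. In the blocked fit the call held without any of the replicate numbers, with edgeR adjusted p-values up to 8.20e-04.

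Ctgf (Ccn2, ENSMUSG00000019997; chr10:24595442-24598683, plus strand) encodes connective tissue growth factor, a relative of Cyr61. Its level was 6.91, 6.26 and 3.47 CPM at 0 h, and 31.4, 13.2 and 12.2 CPM at 1 h. At 6 h it was 3.68, 5.42 and 3.29 CPM. Again the 1 h libraries lay above all others, with replicate 1 far above the other two, and the 0 h and 6 h libraries overlapped. The level at 1 h was 4.55, 2.11 and 3.51 times that at 0 h in replicates 1, 2 and 3. The log2 fold change was 1.77 ± 0.425 with an edgeR adjusted p of 0.657, and in the blocked fit 1.72 ± 0.230 with an edgeR adjusted p of 0.00109. The blocked call held without any of the replicate numbers, with edgeR adjusted p-values up to 0.0143. Exons of Ctgf share 665 bases with Gm15270 on the other strand, and the strand setting of the counting is not given in the sources used here, so reads of both cannot be told apart there.

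Among the 13606 genes with a mean of at least 1 CPM, ordered by the log2 fold change of the blocked fit, Ctgf was 15th and Cyr61 18th from the highest at 1 h against 0 h. In the same order for 6 h against 1 h, Cyr61 was 6th and Ctgf 9th from the lowest. The factors lay near the centre of this distribution at 1 h, with log2 fold changes of −0.11 for Tead1, −0.07 for Yap1, −0.05 for Wwtr1 and 0.09 for Tead2.

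**Figure D2:**
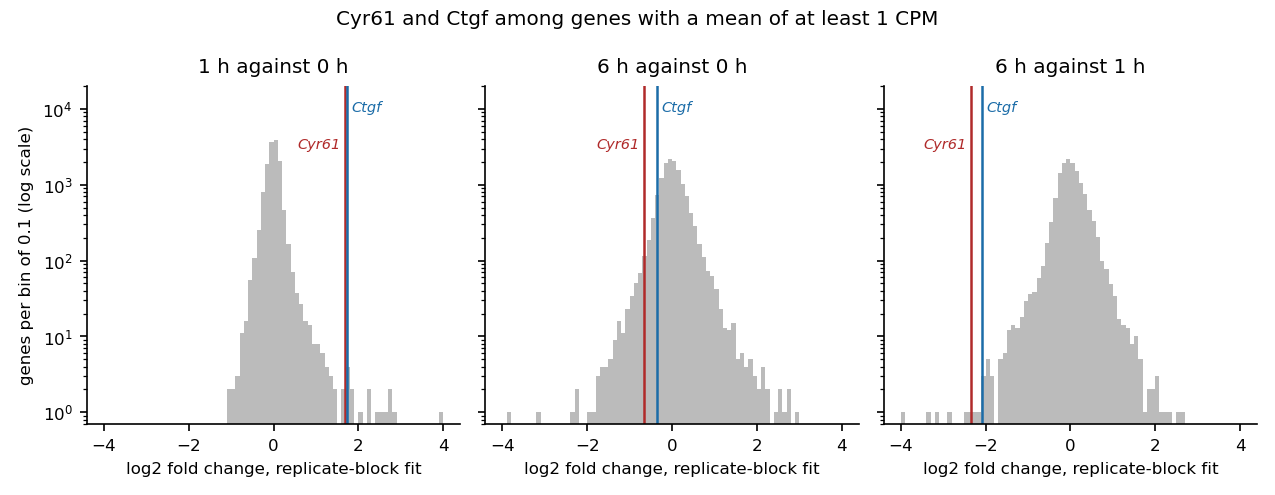
Number of genes (y axis, log scale) by log2 fold change of the blocked fit (x axis, bins of 0.1, values beyond 4 placed in the outer bins) for the 13606 genes with a mean of at least 1 CPM. Vertical lines mark Cyr61 and Ctgf, which lie in the right tail at 1 h against 0 h and in the left tail at 6 h against 1 h.

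Amotl2 (ENSMUSG00000032531; chr9:102716672-102733418, plus strand) encodes an angiomotin that binds YAP at junctions and holds it out of the nucleus. Its level was 36.5, 34.7 and 34.6 CPM at 0 h, 50.9, 41.8 and 39.0 CPM at 1 h, and 29.5, 34.4 and 36.6 CPM at 6 h. The 1 h libraries lay above those of both other time points, by the widest margin in replicate 1. The log2 fold change at 1 h was 0.32 ± 0.118, with an edgeR adjusted p of 1.00, and in the blocked fit 0.31 ± 0.0958, with an edgeR adjusted p of 0.101. DESeq2 with the replicate block called it (log2 fold change 0.32, adjusted p 0.0212). From 1 h to 6 h Amotl2 had a log2 fold change of −0.39 ± 0.118 (edgeR adjusted p 0.131), and it fell in the blocked fit (−0.38 ± 0.0957, edgeR adjusted p 0.00746). Without replicate 1 that blocked call was lost, with an edgeR adjusted p of 0.108.

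Promoter sequence is printed for Cyr61 and Amotl2, whose 1 h libraries lay above all others, and for Ankrd1, which stayed near 0 and whose window holds more matches. RefSeq start sites (GRCm38.p6) gave windows of 250 bases before to 50 after the start for 8 of the 10 members, in 10 windows, and none was used for Ctgf and Tead1. The motif searched was the core bound by TEAD proteins, GGAATG, on both strands (CATTCC on the other). It was found in the windows of 7 of these 8 members (Yap1, Wwtr1, Lats2, Amotl2, Cyr61, Ankrd1 and Axl), and in 6 of them when only the bases before the start were read, Lats2 being the difference. For comparison, 16.6% of 27025 genes held it in a window of the same length, or 14.4% before the start. Several members are known TEAD targets, so this count is a description. The AP-1 motif TGANTCA and the CArG box bound by SRF had 0 matches in the members' windows, against 8.97% and 1.81% of genes. In the 250 bases before each start, printed 5′ to 3′ on the gene's strand, capitals mark the TEAD core, which begins at position −103 from the start in Cyr61, −65 in Amotl2, and −210 and −123 in Ankrd1. The stretches are chr3:145649986-145650235 (minus strand) for Cyr61, chr9:102717554-102717803 (plus strand) for Amotl2 and chr19:36119845-36120094 (minus strand) for Ankrd1. The Amotl2 stretch lies inside the gene span given above, which begins at chr9:102716672, so the RefSeq start used is an inner one. The Lats2 windows (chr14:57746074-57746373 and chr14:57734369-57734668) likewise lie inside the span of that gene (chr14:57689662-57758388). Bases before the outer starts of Amotl2 and Lats2 were not searched.
Cyr61: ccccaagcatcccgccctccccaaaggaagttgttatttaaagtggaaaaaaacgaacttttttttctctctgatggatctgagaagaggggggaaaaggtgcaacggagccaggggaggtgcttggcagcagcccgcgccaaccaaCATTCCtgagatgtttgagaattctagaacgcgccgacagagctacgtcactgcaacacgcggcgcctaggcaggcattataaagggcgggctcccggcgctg
Amotl2: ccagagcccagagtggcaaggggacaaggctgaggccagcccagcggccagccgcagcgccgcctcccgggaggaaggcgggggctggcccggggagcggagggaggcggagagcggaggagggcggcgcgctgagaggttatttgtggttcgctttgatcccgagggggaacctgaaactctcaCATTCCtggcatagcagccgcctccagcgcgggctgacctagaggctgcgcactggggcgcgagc
Ankrd1: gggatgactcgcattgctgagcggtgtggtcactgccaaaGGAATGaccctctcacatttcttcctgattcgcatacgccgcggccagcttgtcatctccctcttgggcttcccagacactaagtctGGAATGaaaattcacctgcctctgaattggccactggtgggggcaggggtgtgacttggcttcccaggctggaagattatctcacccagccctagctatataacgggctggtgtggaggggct

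Ankrd1 (ENSMUSG00000024803; chr19:36111961-36120099, minus strand) encodes a muscle ankyrin repeat protein that is a strong YAP target in other cell types. It had 0, 0 and 1 counts at 0 h, 0, 0 and 2 at 1 h, and 2, 0 and 2 at 6 h. All 9 libraries were under 3 counts, the limit set here for detection, so it was not detectable at this depth and no fold change is given.

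At 6 h against 0 h the changes were small, and 7 of the 9 tested members had negative log2 fold changes, 3 of the 4 factors among them. The fit with time point only called 0 of the 10 members, where 1.46% of all tested genes were called higher and 0.955% lower. At an unadjusted p under 0.05 there were 2 members, Yap1 and Wwtr1, both lower. Of all 18858 tested genes, 1752 were higher and 1621 lower at that p. DESeq2 called 1 member, Yap1, lower, where it called 929 of all genes higher and 813 lower. The blocked fit called 5 members lower (Yap1, Wwtr1, Tead1, Lats2 and Cyr61) and 0 higher, where 17.4% of all tested genes were called higher and 17.5% lower. The median log2 fold change of the 9 members was −0.25 in that fit, against −0.000078 over all tested genes.

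Wwtr1 (ENSMUSG00000027803; chr3:57455649-57575910, minus strand), which encodes TAZ, had 93.0, 110.9 and 112.7 CPM at 0 h, 91.7, 110.6 and 102.9 CPM at 1 h, and 77.9, 89.7 and 87.7 CPM at 6 h. All 6 h libraries lay below all libraries of 0 h and 1 h. The log2 fold change at 6 h was −0.31 ± 0.106 (edgeR adjusted p 0.168), and Wwtr1 fell in the blocked fit (−0.31 ± 0.0478, edgeR adjusted p 2.96e-04). The blocked call held without any of the replicate numbers, with edgeR adjusted p-values up to 0.0131.

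Yap1 (ENSMUSG00000053110; chr9:7931999-8004596, minus strand) had 157, 147 and 154 CPM at 0 h, 148, 144 and 143 CPM at 1 h, and 139.8, 129 and 134 CPM at 6 h. Here too the 6 h libraries lay below all others, though by a narrow margin. At 6 h the log2 fold change was −0.19 ± 0.0616 (edgeR adjusted p 0.161), and Yap1 fell in the blocked fit (−0.19 ± 0.0449, edgeR adjusted p 0.00608). Without replicate 1 or without replicate 2 the blocked call was lost, with an edgeR adjusted p up to 0.0945. Exons of Yap1 share 116 bases with Gm20416 on the other strand.

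Of the DNA-binding partners, Tead1 (ENSMUSG00000055320; chr7:112679318-112906807, plus strand) had 276, 235 and 222 CPM at 0 h, 276, 235 and 177 CPM at 1 h, and 235, 178 and 184 CPM at 6 h. The 6 h level was below the 0 h level in each replicate, but the groups overlapped, and the low 1 h value belongs to the library that follows transcript length. Its log2 fold change at 6 h was −0.30 ± 0.175 (edgeR adjusted p 0.446), and Tead1 fell in the blocked fit (−0.30 ± 0.0720, edgeR adjusted p 0.00578). Without replicate 2 the blocked call was lost, with an edgeR adjusted p of 0.0743. Tead2 (ENSMUSG00000030796; chr7:45215753-45233644, plus strand), a paralog prominent in neural progenitors, had 157, 171 and 244 CPM at 0 h, 161, 189.6 and 261 CPM at 1 h, and 168.5, 192 and 231 CPM at 6 h. Replicate 3 was the highest at each time point, and the time points overlapped. The blocked log2 fold change of Tead2 at 6 h was 0.06 ± 0.0556 (edgeR adjusted p 0.404).

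Lats2 (ENSMUSG00000021959; chr14:57689662-57758388, minus strand) encodes the kinase that phosphorylates YAP and TAZ, and had 72.2, 48.8 and 79.8 CPM at 0 h, 73.3, 53.3 and 68.2 CPM at 1 h, and 57.0, 44.5 and 65.7 CPM at 6 h. Replicate 2 was the lowest throughout, and each 6 h library was below the 0 h library of its number. At 6 h its log2 fold change was −0.26 ± 0.213 (edgeR adjusted p 0.607), and Lats2 fell in the blocked fit (−0.25 ± 0.0668, edgeR adjusted p 0.0104). Without replicate 1 the blocked call was lost, with an edgeR adjusted p of 0.0963. Exons of Lats2 share 2955 bases with Gm49361 on the same strand, so its counts are uncertain where the counting could split or drop those reads.

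Cyr61 at 6 h had a log2 fold change of −0.66 ± 0.290 against 0 h (edgeR adjusted p 0.280), and it fell in the blocked fit (−0.66 ± 0.162, edgeR adjusted p 0.00658). The levels at 6 h were 0.518, 0.684 and 0.673 times those at 0 h in replicates 1, 2 and 3. Ctgf had 0.532, 0.867 and 0.948 times its 0 h level, with a blocked log2 fold change of −0.36 ± 0.244 (edgeR adjusted p 0.280). Axl (ENSMUSG00000002602; chr7:25757273-25788705, minus strand), a receptor tyrosine kinase for Gas6, had 45.2, 43.8 and 35.6 CPM at 0 h, 46.7, 48.2 and 32.5 CPM at 1 h, and 45.6, 46.3 and 42.2 CPM at 6 h. Its time points overlapped, and its blocked log2 fold changes were 0.02 ± 0.0749 at 1 h (edgeR adjusted p 0.907) and 0.12 ± 0.0745 at 6 h (edgeR adjusted p 0.255).

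**Figure D3:**
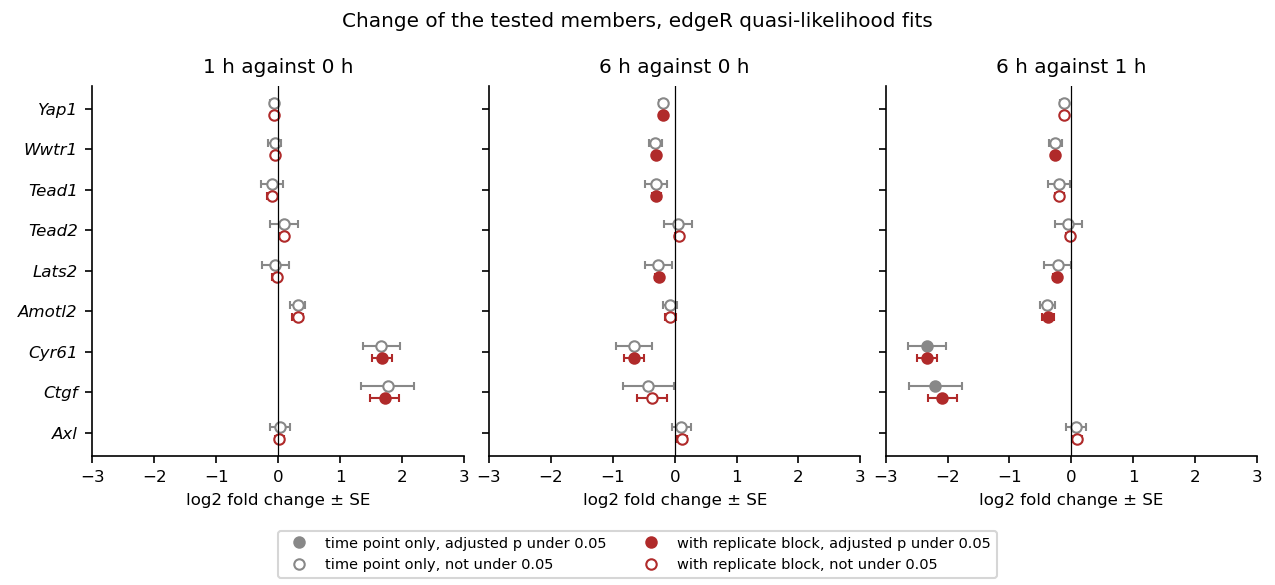
Log2 fold change ± SE (x axis) of the 9 tested members in the 3 comparisons, from the edgeR fit with time point only (grey) and the blocked fit (red). Filled points have an adjusted p under 0.05. Cyr61 and Ctgf have the widest changes at 1 h against 0 h and at 6 h against 1 h, and the factors lie within 0.31 of 0.

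Between 1 h and 6 h Cyr61 and Ctgf fell. The fit with time point only called 2 of the 10 members, Cyr61 and Ctgf, both lower, where 0.663% of all tested genes were called lower and 1.48% higher. The blocked fit called 5 lower (these and Wwtr1, Lats2 and Amotl2) and 0 higher, where 17.5% of all tested genes were called lower and 18.0% higher. Cyr61 fell by 2.33 ± 0.302 on the log2 scale (edgeR adjusted p 0.0124), with levels at 6 h that were 0.119, 0.254 and 0.249 times those at 1 h. Without the replicate 1 library of 1 h, or the replicate 1 or replicate 2 library of 6 h, the edgeR adjusted p was above 0.05, at up to 0.0592. Ctgf fell by 2.20 ± 0.431 on the log2 scale (edgeR adjusted p 0.0445), with levels at 6 h that were 0.117, 0.410 and 0.270 times those at 1 h. Leaving out any of the 9 libraries ended the call of Ctgf, with edgeR adjusted p-values between 0.0626 and 0.169. In the blocked fit both calls held without any replicate number, with edgeR adjusted p-values up to 1.66e-05 for Cyr61 and 3.80e-04 for Ctgf. Wwtr1 fell from 1 h to 6 h in the blocked fit (−0.26 ± 0.0478, edgeR adjusted p 0.00117), as did Lats2 (−0.23 ± 0.0668, edgeR adjusted p 0.0179), whose call was lost without replicate 1 or replicate 2 (edgeR adjusted p up to 0.186). When the dependence on GC content and length was removed from each library, the blocked fit also called Yap1 (−0.13, edgeR adjusted p 0.0168), Tead1 (−0.22, edgeR adjusted p 0.00184) and Tead2 (−0.12, edgeR adjusted p 0.0401) lower. That fit called 4106 of 18779 genes lower and 3202 higher in this comparison.

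The genes most like Cyr61 over the 9 libraries, by Pearson correlation of log2 CPM among the 13606 genes with a mean of at least 1 CPM, were Per1 (r = 0.976), F3 (r = 0.968), Ccl7 (r = 0.968), Mafk (r = 0.950) and Arl4a (r = 0.949). For Ctgf they were Nr6a1 (r = 0.895), Cttnbp2nl (r = 0.894), Tbcel (r = 0.893), Amotl2 (r = 0.889) and Klf6 (r = 0.888). Cyr61 and Ctgf had r = 0.821 with each other, which placed Ctgf 101st among the genes most like Cyr61 and Cyr61 39th among those most like Ctgf. These libraries share their replicate numbers and depth, and the correlations are given as a description. Mean levels of these genes were highest at 1 h, which their choice by likeness to Cyr61 and Ctgf favours. Per1, a clock gene, had 19.5, 30.1 and 16.6 CPM in time order, and Klf6, a zinc-finger factor, had 119.6, 178 and 93.2 CPM. The differences were smaller in Nr6a1 (7.28, 7.91 and 7.06 CPM) and Tbcel (42.4, 46.4 and 41.8 CPM).

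The wider pathway was described with 5 lists of 69 genes, of which 65 passed the filter. At 1 h the fit with time point only called 0 of the 65 tested, and DESeq2 called 0. With time point only, 2 were higher and 2 lower at an unadjusted p under 0.05. Of all 18858 tested genes, 276 were higher and 459 lower at that p. The blocked fit called 4 higher and 4 lower, where 1.36% and 2.14% of all tested genes were called. At 6 h against 0 h the fit with time point only called 2 higher and 1 lower, and the blocked fit 13 higher and 26 lower, with a median log2 fold change of −0.12 over the 65 genes. The shares over all tested genes in that blocked fit were 17.4% higher and 17.5% lower, and these are the background for each list at 6 h against 0 h. At 6 h against 1 h the counts were 2 higher and 3 lower with time point only and 12 higher and 25 lower in the blocked fit, where 18.0% and 17.5% of all tested genes were called. The genes named next are those with the largest changes among the blocked calls of each list that had a mean of at least 1 CPM.

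Of the 17 core kinases and scaffolds, all tested, 0 were called in the blocked fit at 1 h, and 3 rose and 7 fell at 6 h against 0 h, against a background of 17.4% and 17.5%, while the fit with time point only called 0 in either comparison. Wwc1, the scaffold KIBRA upstream of LATS, rose from 77.8, 104.5 and 99.8 CPM to 135, 170.5 and 136 CPM (blocked log2 fold change 0.65 ± 0.0633, edgeR adjusted p 8.17e-06, against 0.0679 with time point only). Mob1b, a coactivator of LATS, fell by 0.41 ± 0.0618 on the log2 scale, and Stk3, which encodes MST2, fell by 0.36 ± 0.0547 (blocked edgeR adjusted p-values 2.65e-04 and 2.52e-04, against 0.0717 and 0.0592 with time point only). Against 1 h, Taok2, a kinase that activates MST, rose at 6 h with either fit (0.33 ± 0.0568 with time point only, edgeR adjusted p 0.0305). The list thus held genes on either side of 0.

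Of the 11 nuclear cofactors and further regulators, 2 fell at 1 h in the blocked fit, Ajuba and Amotl1 (both −0.30, edgeR adjusted p 0.0132 and 0.0331, against 1.00 with time point only). The blocked call was lost without replicate 1 or 2 for Ajuba (edgeR adjusted p up to 0.174) and without replicate 2 or 3 for Amotl1 (up to 0.140). At 6 h against 0 h, 3 rose and 3 fell, where the background was 17.4% higher and 17.5% lower, and the fit with time point only called 1 higher and 0 lower. Vgll4, which competes with YAP for TEAD, rose with either fit from 80.9, 77.4 and 88.7 CPM to 117, 134 and 115 CPM (0.57 ± 0.0908 with time point only, edgeR adjusted p 0.0251). With time point only this call held in 2 of 9 fits that each left out a library, those without the replicate 2 or replicate 3 library of 1 h, and reached 0.120 in the others. Tead3, the TEAD paralog expressed at 14.1 to 17.1 CPM at 0 h, rose by 0.40 ± 0.0714, and the scaffold gene Amot fell by 0.45 ± 0.0882 on the log2 scale (blocked edgeR adjusted p-values 7.60e-04 and 0.00163, against 0.107 and 0.225 with time point only). Against 1 h, Wtip, which encodes a LIM protein related to Ajuba, fell by 0.46 ± 0.0914 in the blocked fit (edgeR adjusted p 0.00188, against 0.424 with time point only).

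Further YAP/TAZ targets did not share 1 direction. Of 15 genes, 14 were tested, and the blocked fit called 2 higher and 1 lower at 1 h, and 5 higher and 5 lower at 6 h against 0 h, against backgrounds of 1.36% and 2.14%, and of 17.4% and 17.5%. The fit with time point only called 0 of them at 1 h, and 1 higher and 0 lower at 6 h against 0 h. F3, the tissue factor that starts coagulation, was, like Cyr61, highest at 1 h, with 12.8, 13.6 and 16.1 CPM at 0 h, 21.7, 16.5 and 20.4 CPM at 1 h, and 9.28, 10.3 and 11.2 CPM at 6 h. It rose at 1 h in the blocked fit (0.46 ± 0.0940, edgeR adjusted p 0.0161, against 0.936 with time point only) and fell from 1 h to 6 h with either fit (−0.93 ± 0.142, edgeR adjusted p 0.0212 with time point only). Igfbp3, a binding protein of insulin-like growth factors, rose at 1 h in the blocked fit (0.35 ± 0.0570, edgeR adjusted p 0.00406, against 1.00), and the kinase gene Nuak2 fell by 0.53 ± 0.0966 (edgeR adjusted p 0.00947, against 1.00). These blocked calls at 1 h were lost without replicate 1 for F3 (edgeR adjusted p 0.110) and Igfbp3 (0.0514), and without replicate 1 or 2 for Nuak2 (up to 0.0863). At 6 h against 0 h, Crim1, a transmembrane protein that binds BMPs, rose with either fit from 78.1, 84.5 and 67.2 CPM to 163, 141 and 120.3 CPM (0.88 ± 0.164 with time point only, edgeR adjusted p 0.0367). With time point only its call held in 1 of 9 fits that each left out a library, that without the replicate 3 library of 1 h, and reached 0.141 in the others. The secreted matrix protein gene Ccdc80 rose by 1.57 ± 0.119 in the blocked fit (edgeR adjusted p 9.71e-07, against 0.210), and Nt5e, which encodes the ectonucleotidase CD73, fell by 0.63 ± 0.160 (edgeR adjusted p 0.00790, against 0.461), a call lost without replicate 2 or 3 (up to 0.0914).

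Among 9 relatives of the target genes, 7 were tested. The blocked fit called 0 at 1 h, and 1 higher and 2 lower at 6 h against 0 h (background 17.4% and 17.5%), and the fit with time point only called 0 higher and 1 lower there. Mertk, a receptor of the same family as Axl, fell with either fit from 19.0, 19.4 and 20.8 CPM at 0 h to 9.64, 9.63 and 12.6 CPM at 6 h (−0.89 ± 0.123 with time point only, edgeR adjusted p 0.0159), and these groups did not overlap. Leaving out any 0 h library, or the replicate 1 or replicate 2 library of 6 h, ended that call, with an edgeR adjusted p up to 0.0875. Tyro3, the remaining receptor of the family, rose in the blocked fit (0.25 ± 0.0455, edgeR adjusted p 0.00104, against 0.411).

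The list of actin and related genes driven by SRF and its MRTF cofactors, a set that shares the response to adhesion with YAP, had 16 of 17 genes tested. It also holds the genes of these factors, Srf, Mrtfa and Mrtfb. The blocked fit called 2 higher and 1 lower at 1 h, 1 higher and 9 lower at 6 h against 0 h, and 1 higher and 10 lower at 6 h against 1 h. The shares over all tested genes were 1.36% and 2.14%, 17.4% and 17.5%, and 18.0% and 17.5% in these comparisons. With time point only the list had 0 calls at 1 h and at 6 h against 0 h, and 0 higher and 1 lower at 6 h against 1 h. The median log2 fold change of the list was 0.12 at 1 h and −0.29 at 6 h against 0 h. Srf rose at 1 h (0.37 ± 0.0917, edgeR adjusted p 0.0449), as did Acta2, smooth muscle actin (0.24 ± 0.0531, edgeR adjusted p 0.0271), and Mrtfb fell by 0.33 ± 0.0637 (edgeR adjusted p 0.0113). With time point only the edgeR adjusted p was 1.00 for all of these, and the blocked calls were lost without replicate 1 or 3 for Srf (up to 0.172), without replicate 1 or 2 for Acta2 (up to 0.185) and without replicate 2 for Mrtfb (0.0660). At 6 h Acta2 fell from 89.5, 94.3 and 47.8 CPM to 40.0, 44.7 and 25.2 CPM, and Tagln, which encodes the actin-binding protein transgelin, from 4.33, 6.34 and 4.73 CPM to 1.89, 3.78 and 2.74 CPM (blocked log2 fold changes −1.06 ± 0.0543 and −0.88 ± 0.116, edgeR adjusted p-values 4.13e-08 and 8.40e-05, against 0.134 and 0.159 with time point only). Fhl2, a LIM-domain cofactor, fell from 1 h to 6 h with either fit (−2.05 ± 0.356 with time point only, edgeR adjusted p 0.0322), at 1.10 to 2.39 CPM at 1 h and 0.336 to 0.594 CPM at 6 h. Of the 2 mural markers tested, Rgs5 moved with these genes, from 1.56, 0.716 and 3.70 CPM at 0 h to 0.828, 0.407 and 2.30 CPM at 6 h (blocked edgeR adjusted p 0.00430, against 0.700 with time point only), and Pdgfrb moved the other way, from 0.0691, 0.0406 and 0.387 CPM to 0.760, 0.627 and 4.97 CPM (blocked edgeR adjusted p 2.31e-07, against 0.175). The part of mural cells in these changes was not tested.

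**Figure D4:**
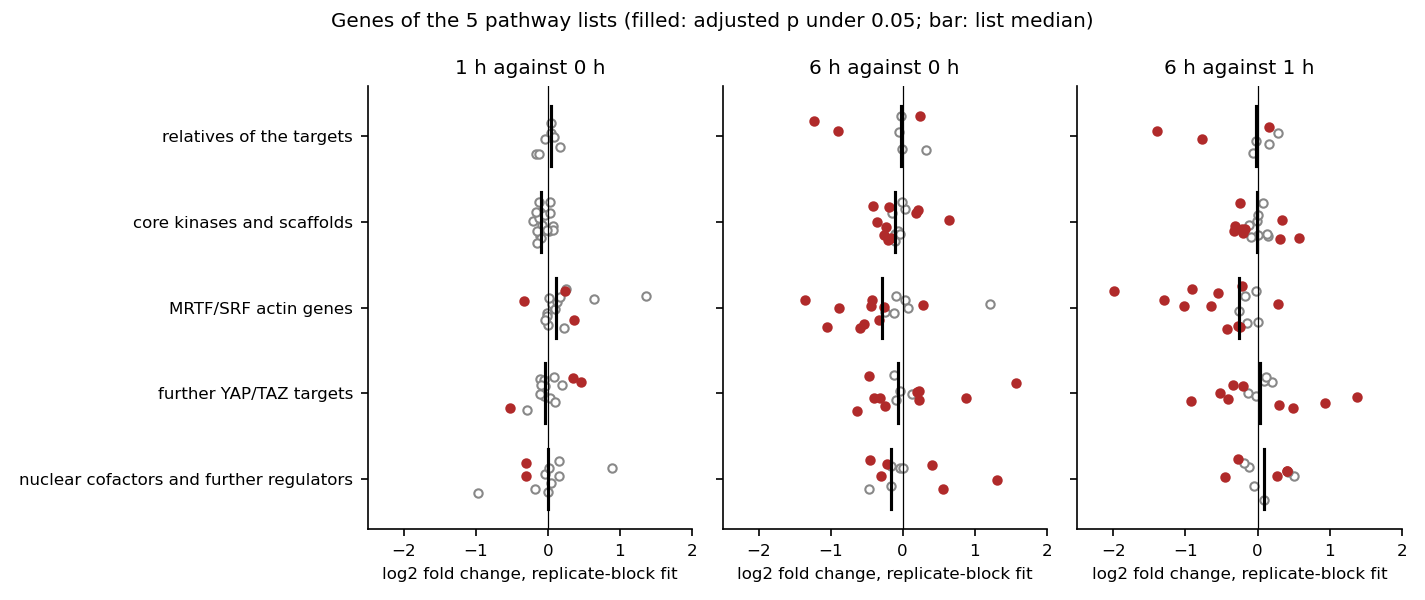
Log2 fold change of the blocked fit (x axis) for the tested genes of the 5 pathway lists (rows) in the 3 comparisons. Each point is a gene, filled where its adjusted p is under 0.05, with a random vertical offset, and black bars are list medians. The genes of the MRTF/SRF actin list lie mostly below 0 at 6 h, with a median of −0.29 against 0 h, and the further YAP/TAZ targets lie on either side of 0.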

How the data were processed

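RNA-seq of 9 libraries (3 per time point) was analysed. The authors aligned paired-end reads to mm10 (GRCm38) and counted them per gene with STAR 2.5.3a, and the deposited values are raw counts, not normalised. The library label reads stranded, and the strand setting of the counting is not given in the sources used here. FastQC and DESeq2 1.22.1 are also named in the submitters' processing notes.

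Counts were tested in R 4.3.3 with edgeR 4.0.16 (filterByExpr with a minimum count of 10 and total of 15, TMM, glmQLFit and glmQLFTest, Benjamini-Hochberg over 18858 genes, threshold 0.05), without a covariate. SEs came from the F statistic. DESeq2 1.42.0, the replicate block, other scalings and filters, and left-out libraries or replicate numbers were the alternatives. Fits with GC and length trends removed (splines with 4 degrees of freedom) were chosen after seeing the data. Replicate numbers stand, in order, for the letters B, C and D in the library titles. Same-numbered libraries had correlated deviations (r between 0.733 and 0.800 in 9 pairs, against −0.462 to −0.314 in 18 other pairs), so the numbers pair the samples. Symbols, exon lengths and positions were taken from GENCODE M21 (48144 of 48526 identifiers matched), and promoters from RefSeq. Log2 CPM used a prior count of 2. The scripts were tested on simulated data.

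The members and lists were chosen with earlier results of these data known. Named genes are the members, up to 3 genes per list and comparison with the largest blocked changes among calls at a mean level of 1 CPM or more, and the 5 genes most correlated with Cyr61 and with Ctgf. Marker genes named beside a result were chosen after their values had been seen. Tables and figures were made in Python with pandas and matplotlib.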

Additional observations from a re-analysis of the deposited data

Results flagged for a closer look

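For 7 of the genes reported, the change from 0 h differed between 1 h and 6 h, as tested by 6 h against 1 h in the fit with time point only (edgeR's quasi-likelihood test, adjusted over all genes tested). Of all tested genes, 1.48% were called higher and 0.663% lower in that comparison. Cyr61 differed by −2.33 (adjusted p 0.0124) and Ctgf by −2.20 (adjusted p 0.0445) on the log2 scale. F3 differed by −0.93 (edgeR adjusted p 0.0212), Mertk by −0.77 (0.0237) and Fhl2 by −2.05 (0.0322). Taok2 differed by 0.33 (edgeR adjusted p 0.0305) and Crim1 by 0.93 (0.0330). Leaving out any of the 9 libraries ended the calls of Taok2 (edgeR adjusted p 0.0608 to 0.126) and Crim1 (0.0549 to 0.124). The call of F3 was lost without the replicate 1 or 3 library of 1 h or any library of 6 h (edgeR adjusted p up to 0.106). Those of Mertk and Fhl2 held in 2 of 9 such fits each, without the replicate 2 library of 0 h or the replicate 3 library of 6 h for Mertk, and without the replicate 2 library of 0 h or of 1 h for Fhl2 (edgeR adjusted p up to 0.116 and 0.134 in the others). In the fit with the replicate block all 7 were called, also without any replicate number, where 18.0% of all tested genes were called higher and 17.5% lower with all libraries.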

How the results depend on the processing

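The number of members called depended on the replicate block. At 1 h against 0 h it was 0 with time point only, 2 with the replicate block, 2 with DESeq2, 3 with DESeq2 and the block, and 2 with GC and length trends removed and the block. At 6 h against 0 h these counts were 0, 5, 1, 5 and 5, and at 6 h against 1 h they were 2, 5, 3, 6 and 8. For the pathway lists they were 0, 8, 0, 10 and 7 at 1 h against 0 h, then 3, 39, 15, 37 and 42 at 6 h against 0 h, and 5, 37, 15, 36 and 43 at 6 h against 1 h. Of all tested genes, the last 3 of these settings called 55, 368 and 293 higher and 44, 561 and 409 lower at 1 h. At 6 h against 0 h they called 929, 3006 and 3057 higher and 813, 3120 and 3912 lower. At 6 h against 1 h they called 932, 3020 and 3202 higher and 763, 3265 and 4106 lower. The shares called by the first 2 settings are given with each comparison above. At an adjusted p under 0.01, and in fits of only the 6 libraries compared, the edgeR fit with time point only called 0 members and 0 list genes in any comparison. Leaving out each library gave 0 to 1 members and 0 to 3 list genes at 6 h against 1 h, 0 members and 0 to 4 list genes at 6 h against 0 h, and 0 of either at 1 h. In the blocked fit without replicate 1, 2 or 3, the members called were 2, 2 and 2 at 1 h, 3, 3 and 6 at 6 h against 0 h, and 3, 4 and 7 at 6 h against 1 h, and the list genes were 2, 3 and 7, then 28, 26 and 34, then 26, 25 and 36. Of all tested genes, those fits called 157, 116 and 238 higher and 113, 68 and 240 lower at 1 h. The calls at 6 h against 0 h were 2419, 1907 and 3439 higher and 2104, 1749 and 3323 lower. Those at 6 h against 1 h were 2450, 2284 and 3254 higher and 2228, 1848 and 3171 lower. RLE scaling, library totals, no filter on low counts and a mean of at least 1 CPM gave the same number of members as the fit with time point only. Small changes turned sign under some alternatives. In the fit with time point only none of these was called, though Acta2 at 1 h was called with the block, Tead2 at 6 h against 1 h with trends removed and the block, and Tead2 at 6 h against 0 h with the block and without replicate 3. With library trends removed, Tead2 at 6 h against 0 h was −0.066 without and −0.055 with the block, Lats2 at 1 h was 0.0059 with the block, and Axl at 6 h against 1 h was −0.017 without it. In the blocked fit, without replicate 3, Tead1 (0.0033) and Lats2 (0.079) at 1 h and Tead2 (0.043) and Axl (−0.047) at 6 h against 1 h turned, as did Amotl2 at 6 h against 0 h without replicate 1 (0.045) and Axl at 1 h without replicate 2 (−0.038). Leaving out each library gave −0.14 to 0.021 for Wwtr1, −0.24 to 0.066 for Tead1, −0.12 to 0.31 for Tead2, −0.22 to 0.10 for Lats2, −0.072 to 0.20 for Axl and −0.028 to 0.45 for Acta2 at 1 h against 0 h, −0.081 to 0.27 for Tead2 and −0.14 to 0.011 for Amotl2 at 6 h against 0 h, and −0.19 to 0.17 for Tead2 and −0.088 to 0.18 for Axl at 6 h against 1 h. The causes were not tested. Each time point had 3 libraries, and Ankrd1 was the member with too few counts to test.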
